A study of Triticum dicoccoides with 12 samples.

Results

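In roots of wild emmer wheat, 189 of the 61115 probe sets tested read at least 0.8 units lower in the genotype Y12-3 than in the genotype A24-39, both in watered and in water-stressed plants. That is 0.309% of the probe sets, and they are called the A24-39-high probe sets below. Members were chosen from the means of 3 arrays in each of 4 groups, after control probe sets had been set aside. The genotype difference of the members is therefore given as a description only, with no test. The same rule with the sign turned picked 158 probe sets (0.259%) that read higher in Y12-3. After centring the arrays on the hybridisation spike-ins, the rule kept 87 of the 189. After centring on the poly-A spike-ins it picked 258, with all 189 among them.

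The 4 groups were Y12-3 and A24-39, both Triticum turgidum subsp. dicoccoides, each with plenty of water or after 7 days without water that began at the stage of 4 leaves. The plants were 4 weeks old and grew in a greenhouse. Each group had 3 arrays, labelled as biological replicates, and since no label tells single plants from pooled ones, the p-values measure the spread between these RNA samples. Y12-3 is known as a drought-resistant line and A24-39 as a drought-susceptible one. Each line is a single genotype, so a difference between them is one between these lines.

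Wild emmer is the wild progenitor of durum wheat and carries the A and B subgenomes. Most of its genes therefore exist as a pair of closely similar copies, called homoeologues. The array was designed from transcripts of bread wheat, which carries A, B and D copies, and a probe set combines several short oligonucleotides against 1 transcript sequence. Short probes lose signal where the target differs from them by even a few bases. A probe set that reads higher in A24-39 can thus differ in transcript abundance, in sequence under the probes, or in which copy is present, and these cannot be told apart from array signal. The word level is used here for array signal. The ending of a probe set name tells how specific its probes are. The ending _a_at marks probes shared by alternative transcripts of a gene, _s_at probes shared by transcripts of several genes, and _x_at probes of which some match unrelated sequences.

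Levels are in log-like units, used as deposited and with no base stated, with array SDs of 0.814 to 0.844 and medians of -0.332 to -0.291, so no fold is given. Pairs of arrays correlated at 0.856 to 0.991 over all 66 pairs. Between 33.0% and 47.8% of the probe sets on an array lay above the brightest of 23 controls without a wheat target, and the highest group mean of those controls, -0.104, is used below as the background line. Symbols for 2 of 5 green-tissue genes were found on the array (FBP, a photosynthetic fructose bisphosphatase, and petC, a subunit of the cytochrome b6f complex). Their 4 probe sets had group means of -0.78 to -0.11, with 0 above that line. No root marker could be checked by symbol. The hybridisation spike-ins, added to the labelled RNA in fixed amounts, had mean offsets of 0.026 in well-watered Y12-3, -0.293 in stressed Y12-3, 0.114 in well-watered A24-39 and 0.153 in stressed A24-39. The poly-A spike-ins, added before labelling, had offsets of 0.034, 0.086, -0.039 and -0.081 in the same order. The part of these offsets in the genotype differences was not tested, but values scaled by them are given where a result moves.

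The members had a median level of 1.30 in well-watered and 1.36 in stressed A24-39, and of -0.15 and -0.04 in Y12-3. Over all probe sets the median level was between -0.31 and -0.30 in each group. Member levels ranged from 0.21 to 4.61 in well-watered and from 0.29 to 4.90 in stressed A24-39, so every member lay above the background line in that genotype. In Y12-3 they ranged from -0.68 to 3.27 and from -0.68 to 3.71. For 85 members all 4 group means lay above the line. For 82 members only the A24-39 means did, 16 were above it also in stressed Y12-3, and 6 also in well-watered Y12-3. For these 104 members the difference is a lower bound on the signal difference under at least 1 watering.

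**Figure D1:**
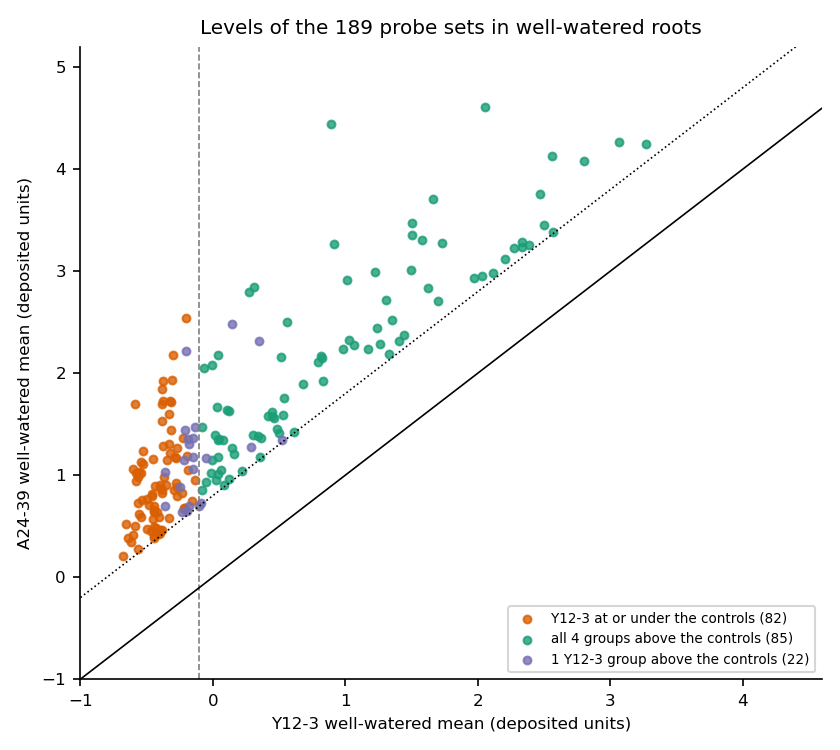
Group mean level of each of the 189 members in well-watered Y12-3 (horizontal axis) and well-watered A24-39 (vertical axis), in deposited log-like units. The solid line marks equal levels, the dotted line 0.8 units above it and the dashed vertical line the background line at -0.104; colours show the 85 members above it in all 4 groups, the 82 above it in neither Y12-3 group and the 22 above it in 1 Y12-3 group.

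The difference between the genotypes, as Y12-3 minus A24-39, ran from -3.56 to -0.81 in well-watered and from -3.07 to -0.81 in stressed roots, with a median of -1.21 under each. The median over all probe sets was -0.003 and -0.024. The mean of both differences was at or under -1 for 147 members, at or under -1.5 for 53 and at or under -2 for 20. The 3 arrays of Y12-3 all read below the 3 of A24-39 for 188 members in well-watered roots, where 8.79% of all probe sets did so. In stressed roots this held for 184 members, against 23.3% of all probe sets, and under both waterings for 183, against 4.57%. The rule used these differences, so nothing is read from the counts. At the edge of the set, Ta.3261.1.S1_x_at (-0.81 well-watered, -0.89 stressed) and Ta.28102.1.A1_at lay just inside the bound. TaAffx.57074.1.S1_at and Ta.18657.1.S1_at lay just outside it, and the smaller of their differences in size was -0.80 in each case.

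The member with the lowest mean difference was Ta.27457.5.S1_x_at. It read 1.09, 1.33 and 0.26 in well-watered and 0.39, 0.57 and 0.72 in stressed Y12-3. In A24-39 it read 4.51, 4.22 and 4.63 well-watered and 3.62, 4.03 and 3.23 stressed. Every A24-39 array lay above every Y12-3 array by a wide margin, and the Y12-3 arrays themselves lay above background. The other probe sets whose names start with Ta.27457 did not share this difference in size. They lay above background in both genotypes and differed by 0.13 to -0.75 (limma adjusted p from 0.205 to 0.975). Ta.659.5.S1_at was among the brightest members, at 2.09, 2.29 and 1.78 in well-watered and 1.84, 2.59 and 3.02 in stressed Y12-3. Its A24-39 arrays read 4.44, 4.40 and 4.99 well-watered and 4.92, 4.82 and 4.95 stressed. The signal was strong in both genotypes, and the groups did not overlap.

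Other members read at background in Y12-3 on all or nearly all arrays. Ta.14489.1.S1_at read -0.59, -0.52 and -0.65 in well-watered and -0.45, -0.47 and -0.53 in stressed Y12-3, against 1.90, 1.35 and 1.83 in well-watered and 2.77, 2.75 and 2.25 in stressed A24-39. Ta.728.1.A1_at read -0.31, 0.09 and -0.40, then -0.55, -0.39 and -0.29 in Y12-3, against 2.48, 2.47 and 2.68, then 1.19, 1.45 and 0.94 in A24-39. Ta.7835.2.S1_x_at lay between -0.44 and -0.15 on the 6 Y12-3 arrays and between 1.47 and 2.19 on the 6 A24-39 arrays. These 3 members had clear signal in A24-39 alone. The first and second of them also moved with watering in A24-39, in opposite directions, as described below.

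The remaining members of the 10 lowest were Ta.774.2.S1_at, Ta.30733.1.S1_x_at, Ta.5390.1.S1_at, Ta.22966.3.S1_at and Ta.23327.1.S1_at. In Y12-3, Ta.774.2.S1_at read from -0.33 to 0.04 with water and from -0.27 to 0.53 under stress, against 2.05 to 2.35 and 3.00 to 3.11 in A24-39. Ta.5390.1.S1_at read from 0.74 to 1.26 over the 6 Y12-3 arrays and from 2.93 to 3.84 over the 6 A24-39 arrays. Ta.23327.1.S1_at was the most variable of the 10 in well-watered A24-39, at 0.64 to 2.23, while all 6 Y12-3 arrays lay between -0.48 and -0.15. In none of these did an A24-39 array reach down to a Y12-3 array.

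**Figure D2:**
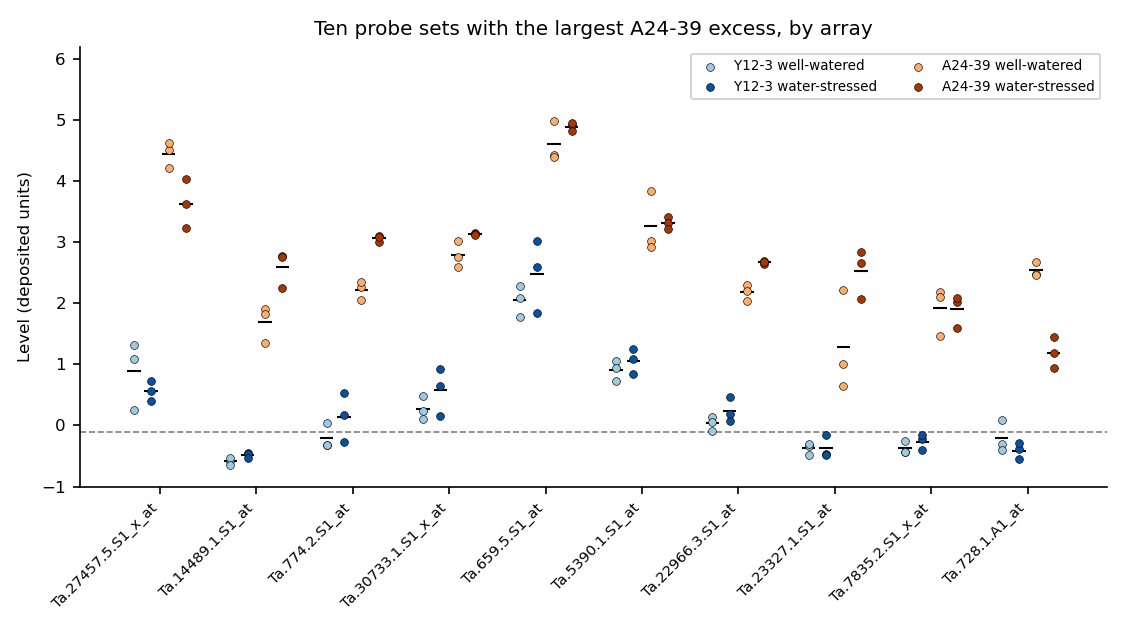
Level on each array (points) and group mean (bars) of the 10 members with the lowest mean difference, in deposited log-like units, for well-watered and stressed Y12-3 and A24-39 (n = 3 arrays each). All A24-39 arrays lie above all Y12-3 arrays of the same watering; Ta.14489.1.S1_at is near -0.5 in Y12-3 and between 1.35 and 2.77 in A24-39.

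The size of the difference was similar under both waterings for most members. It changed by no more than 0.3 units for 148 of the 189, was larger under stress for 99 and larger with water for 90, and the median change was -0.024. For 8 members it changed by over 0.8 units. The widest changes were those of Ta.3784.1.S1_x_at, whose difference went from -0.88 in well-watered to -2.74 in stressed roots, and of TaAffx.131237.1.S1_at, which went from -2.33 to -0.85. Since both differences entered the rule, this change was not tested.

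Applied to 2 of the 3 replicate numbers, the rule left out an array in each group, whose readings this choice had not used. The members themselves were chosen with all arrays. The sets picked without replicate 1, 2 and 3 shared 158, 182 and 169 probe sets with the members. Without replicate 1 the rule picked 163 probe sets, and in the left-out arrays all 163 read lower in Y12-3 under both waterings and 148 passed the bound of 0.8 again. The left-out medians were -1.37 well-watered and -1.43 stressed. Without replicate 2 it picked 205, of which 205 read lower and 141 passed the bound again, with left-out medians of -1.02 and -1.23. Without replicate 3 it picked 199, of which 199 read lower and 133 passed again, with left-out medians of -1.25 and -0.99. Over all probe sets, 25.2%, 26.2% and 45.9% of the left-out readings were lower in Y12-3 under both waterings, and 0.373%, 0.262% and 0.268% passed the bound. These shares are a description, since the arrays of a group share the plant line and the growth.

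By name ending, 125 members (66.1%) had no ending that marks shared probes, against 79.2% of all probe sets and 63.9% of those higher in Y12-3. Of the members 40 (21.2%) ended in _x_at, against 11.1% of all and 13.3% of the probe sets higher in Y12-3. The endings _a_at and _s_at made up 16 (8.5%) and 8 (4.2%) of the members, and 5.4% and 4.3% of all probe sets. For the 64 members with such an ending the name itself says that the signal can hold more than 1 transcript. In the other 125 the signal can still hold both homoeologues of a gene.

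Probe set names also carry the transcript cluster, a group of similar sequences made when the array was designed, as in Ta.7835. The 189 members fell into 165 clusters, of which 18 held several members. Ta.7835 held 5 members, Ta.8953 held 4, Ta.20147 held 3, and Ta.9369 and Ta.21586 held 2 each. The 5 clusters differed in whether their remaining probe sets followed. In Ta.7835 the only other probe set, Ta.7835.3.S1_at, differed by -0.04 and -0.02 and lay at background, while Ta.8953 and Ta.21586 had no other probe set. In Ta.20147 the 3 members had mean differences of -2.13, -2.09 and -2.08, and Ta.20147.2.S1_at differed by -0.38 in well-watered (limma adjusted p = 0.00167) and -0.41 in stressed roots (limma adjusted p = 0.000876). In Ta.9369 the members differed by -1.96 and -1.71 on average, whereas Ta.9369.2.S1_at, bright in both genotypes, differed by 0.11 and 0.12.

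Different probe sets can also read the same target sequence, and 15 targets had several member probe sets. Their mean differences lay 0.02 to 1.39 units apart, with a median of 0.32. Only members entered these values, so probe sets of the same target that missed the rule are left out. On Ta.20147.3.S1, for example, the member Ta.20147.3.S1_a_at had a mean difference of -2.08. Ta.20147.3.S1_at, at background in every group, had -0.15. For Ta.21586.1.S1 the readings were -1.74 and -1.72. For Ta.5390.1.S1 they were -2.30 with the _at and -0.91 with the _x_at probe set, so the size of a member's difference depended on which probes read it.

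The other probe sets of these clusters, which were not chosen by the rule, read lower in Y12-3 in part of the clusters and higher in a few. There were 158 of them in 69 clusters, 130 above the background line in at least 1 group. In well-watered roots limma called 25 of the 158 (15.8%) lower in Y12-3, against 2.49% of all probe sets and 4.67% of those above the line in a group. It called 9 (5.70%) higher, against 2.8%. In stressed roots it called 32 (20.3%) lower, against 3.4% and 5.28%, and 7 (4.43%) higher, against 5.08%. Median differences were -0.149 and -0.156, and 115 and 117 of the 158 lay under 0. The count for stressed roots was 11 lower and 72 higher after scaling by the hybridisation spike-ins, under which the median over all probe sets shifted to 0.423. Probe sets of a cluster can share sequence with the members, so they are not independent readings of other genes. Among the 72 of them without a shared-probe ending, 13 were called lower in well-watered and 14 in stressed roots. Over all probe sets without such an ending 2.39% and 3.22% were called lower. Of the 72, 6 and 4 were called higher, against the 2.8% and 5.08% of all probe sets given above. Their median differences were -0.032 and -0.068, near the -0.004 and -0.028 over all probe sets without such an ending.

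Of the 158, 21 probe sets in 18 clusters were called lower in Y12-3 under both waterings, against 1.6% of all probe sets. Another 5, in 4 clusters, were called higher under both, against 1.77%. They are named here because they ran against the members of their own clusters, and they were picked out after their values were seen. In Ta.14571 the member Ta.14571.1.S1_at read -0.38, -0.21 and -0.38 in well-watered and -0.36, -0.07 and 0.12 in stressed Y12-3, against 1.82, 1.51 and 1.85, then 1.92, 1.97 and 1.89 in A24-39. Its neighbour Ta.14571.2.A1_at read 0.35, 0.24 and 0.46, then 0.45, 0.42 and 0.38 in Y12-3, against -0.36, -0.16 and -0.40, then -0.40, -0.37 and -0.38 in A24-39. The group means of the member were thus above the background line in A24-39 alone, with 2 of the 3 stressed Y12-3 arrays also over it, and those of Ta.14571.2.A1_at in Y12-3 alone. The third probe set of the cluster, Ta.14571.3.S1_x_at, was bright in both genotypes and differed by 0.02 and 0.27 (limma adjusted p = 0.959 and 0.0681). For Ta.14571.2.A1_at the difference was 0.66 ± 0.07 (SE; limma adjusted p = 0.000265) in well-watered and 0.80 ± 0.07 (SE; limma adjusted p = 6.9e-05) in stressed roots.

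In Ta.6001 the probe sets also ran in different directions. The member Ta.6001.2.S1_at differed by -1.93 and -2.09, with Y12-3 means of -0.33 and -0.25 at background, while Ta.6001.1.S1_at differed by 0.61 (limma adjusted p = 0.00123) and 0.80 (limma adjusted p = 0.000211), with A24-39 means of -0.33 and -0.38 at background. On the same target as the latter, Ta.6001.1.S1_x_at differed by 0.41 and 0.52, whereas Ta.6001.1.S1_a_at went the other way, by -0.36 (limma adjusted p = 0.0296) in well-watered and -0.22 (limma adjusted p = 0.130) in stressed roots. In Ta.22966 the member Ta.22966.3.S1_at and its neighbour Ta.22966.2.S1_at were each bright in the genotype where they were higher. Another member on the same target, Ta.22966.3.S1_x_at, had a smaller mean difference of -1.11. Ta.22966.1.S1_x_at was bright in both genotypes and differed by -0.11 and -0.29 (limma adjusted p = 0.635 and 0.0611). Ta.22966.3.S1_at read 2.18 ± 0.13 (SD, n = 3) in well-watered A24-39 and 0.04 ± 0.12 (SD, n = 3) in well-watered Y12-3, and Ta.22966.2.S1_at read 0.69 ± 0.50 and 1.95 ± 0.12 in the same groups. The difference of Ta.22966.2.S1_at was 1.26 (limma adjusted p = 0.00774) in well-watered and 1.70 (limma adjusted p = 0.00101) in stressed roots. The fourth cluster was Ta.27657, where Ta.27657.11.S1_x_at differed by 0.58 and 1.04. The member Ta.27657.2.S1_x_at read 2.17 ± 0.27 in A24-39 and 0.82 ± 0.12 in Y12-3 with water. The remaining probe sets of this cluster lay on both sides of 0. Ta.27657.9.S1_at differed by 1.13 and 1.71 (limma adjusted p = 0.0832 and 0.00867). Ta.27657.6.S1_x_at differed by -0.83 and -0.35 (limma adjusted p = 0.134 and 0.442).

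**Figure D3:**
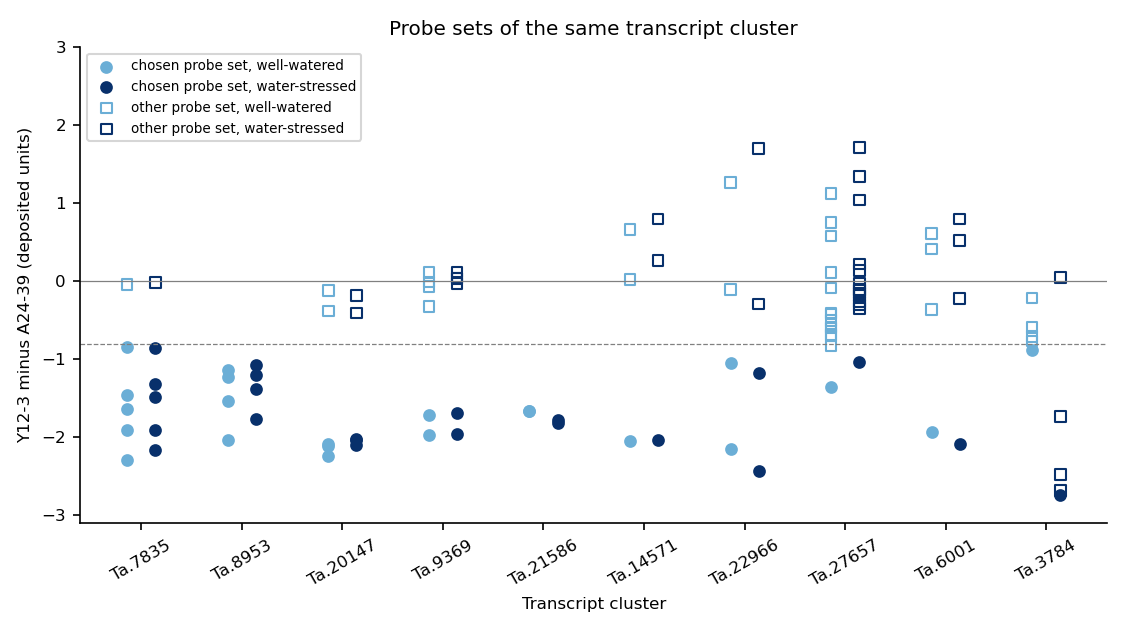
Y12-3 minus A24-39 difference, in deposited log-like units, of the member probe sets (filled) and the other probe sets (open squares) of 10 transcript clusters, well-watered and stressed. The dashed line marks the rule's bound of -0.8; the other probe sets of Ta.14571, Ta.6001 and Ta.22966 include ones that lie above 0, such as Ta.22966.2.S1_at at 1.26 and 1.70.

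Gene symbols were given for 4 of the 189 members, and for 1273 of all probe sets. They are placeholder symbols without a description, so no function is stated. In the RefSeq gene table of wild emmer 0 of the 4 were found. The array was designed from bread wheat transcripts, so nothing is read from that. LOC543235 (Ta.192.1.S1_at) read 0.04, -0.04 and 0.12 in well-watered and 0.27, -0.11 and 0.13 in stressed Y12-3, against 1.32, 0.67 and 1.53, then 1.59, 1.51 and 1.14 in A24-39. LOC543230 (Ta.7602.1.S1_at) was bright and even, from 2.11 to 2.49 over the Y12-3 arrays and from 3.15 to 3.35 over the A24-39 arrays. For LOC543407 (Ta.176.1.S1_x_at) the Y12-3 arrays spanned 1.82 to 2.72 and the A24-39 arrays 2.91 to 3.63. Its other probe set, Ta.176.1.S1_s_at, differed by -0.22 in well-watered (limma adjusted p = 0.259) and -0.55 in stressed roots (limma adjusted p = 0.00445). LOC100037531 (Ta.1082.3.S1_at) met the rule with overlapping arrays under stress, at 0.44, 1.10 and 0.23 in Y12-3 and 2.11, 1.38 and 0.83 in A24-39. Its other probe set, Ta.1082.3.S1_x_at, differed by -0.49 in well-watered (limma adjusted p = 0.504) and -0.56 in stressed roots (limma adjusted p = 0.269). The remaining probe sets of cluster Ta.1082 differed by -0.44 to -0.24 and were not called.

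The response to water stress, averaged over both genotypes, was not used by the rule and was tested on all 61115 probe sets. Limma called 64 members changed (33.9%), 40 higher and 24 lower under stress, against 24.6% of all probe sets (13.6% higher, 11.0% lower). Every member lies above background in A24-39, and among the 25823 probe sets above the line in a group, 46.0% were called (25.5% higher, 20.5% lower). The members' share of calls thus lay between that of all probe sets and that of probe sets above the line in a group. A probe set can pass that line under a single watering, while every member passed it in A24-39 under both. The filters are therefore unlike, and nothing is read from the order. The median averaged response of the members was 0.098, against 0.007 over all, with a range of -1.46 to 1.80. For the poly-A control dap, whose 3′ and 5′ ends have probe sets of their own and which reports on labelling, the 3′ end exceeded the 5′ end by 1.25 ± 0.20 with water and 0.85 ± 0.04 under stress in Y12-3 (SD, n = 3). In A24-39 the excess was 1.15 ± 0.13 and 0.95 ± 0.06 (SD, n = 3). Wheat transcripts with such probe sets did not all move in the same direction. For sucrose synthase the 3′ excess was 3.19 ± 0.76 and 2.37 ± 0.05 in Y12-3 and 3.64 ± 0.24 and 3.25 ± 0.12 in A24-39, with water and under stress. For ubiquitin the 3′ end lay at -1.11 ± 0.04 and -1.15 ± 0.04 against the 5′ end in Y12-3 and at -1.20 ± 0.03 and -1.36 ± 0.06 in A24-39. For GAPDH the value went up, from -0.525 ± 0.139 to -0.459 ± 0.055 under stress in Y12-3. In A24-39 it went from -0.429 ± 0.051 to -0.295 ± 0.073. For actin it went from -0.167 ± 0.214 to -0.287 ± 0.060 in Y12-3. In A24-39 the actin value went from -0.203 ± 0.037 to -0.132 ± 0.033. The part of these values in the genotype and stress differences was not tested. Scaled by the hybridisation spike-ins the split was 61 higher and 19 lower, where 14.6% of all probe sets were called, and by the poly-A spike-ins 26 higher and 25 lower, where 12.5% of all were. Of the 85 members with signal in all groups 42.4% were called, 19 higher and 17 lower, near the 46.0% of probe sets above the line in a group. Of the 82 with signal in A24-39 alone 17.1% were called, 11 higher and 3 lower. The share over all probe sets with those same patterns of signal was not computed, so nothing is read from these splits.

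Within single genotypes the comparison shares arrays with the rule and the called counts below are read with that limit. In A24-39 limma called 44 members (23.3%), 27 higher and 17 lower, against 10.7% of all probe sets (5.35% and 5.36%) and 22.6% of those above the line in a group. In Y12-3 it called 18 (9.52%), 9 higher and 9 lower, against 19.2% (11.1% and 8.1%) and 36.9%. With the hybridisation spike-in scaling the splits were 18 higher and 25 lower in A24-39 and 75 higher and 9 lower in Y12-3, where the median over all probe sets shifted by 0.314. With the poly-A scaling the Y12-3 split was 5 higher and 13 lower. These splits also turned on single arrays: without the second well-watered A24-39 array 15 members were higher and 18 lower in A24-39. In Y12-3 the split was 16 higher and 7 lower without the first stressed array, and 3 higher and 8 lower without the third stressed array. It was 4 and 8, 5 and 7, and 4 and 11 without well-watered Y12-3 array 1, 2 and 3 in turn, and 5 and 11 without the second stressed one. The pairing of same-numbered arrays as a block gave 8 higher and 14 lower in Y12-3. In both genotypes 13 members were called, 4 higher and 9 lower, all in the same direction, against 8.52% of all probe sets, and 0 in opposite directions, against 0.00818%. Another 31 were called in A24-39 alone, against 2.17% of all probe sets, and 5 in Y12-3 alone, against 10.6%. The rule favours signal in A24-39, and the probe sets picked with the sign turned showed the reverse. Of those 158, limma called 9 (5.7%) in A24-39 and 28 (17.7%) in Y12-3. The counts are therefore not read as a trait of the members. The difference between the genotypes was not tested, and 82 members had both Y12-3 means at or under the background line.

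**Figure D4:**
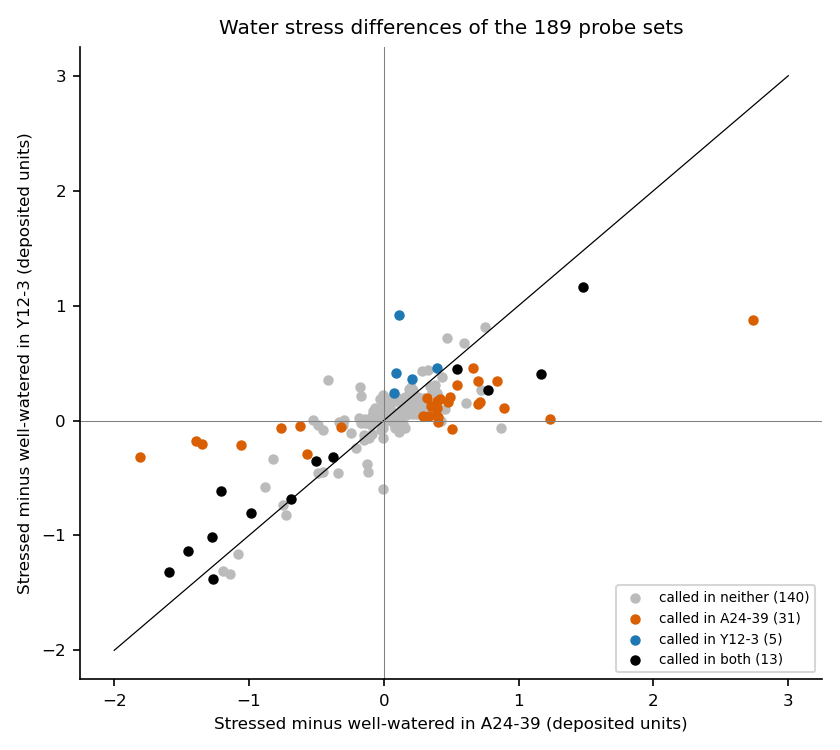
Stressed minus well-watered difference of each of the 189 members in A24-39 (horizontal axis) and Y12-3 (vertical axis), in deposited log-like units, with colours for the genotypes in which limma called the change. The 13 members called in both lie in the quadrants of equal sign, and Ta.3784.1.S1_x_at lies farthest right, at 2.74 in A24-39 and 0.87 in Y12-3.

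The largest rise was that of Ta.3784.1.S1_x_at. It read 1.01, 0.83 and 0.27 in well-watered and 3.15, 3.61 and 3.55 in stressed A24-39, and -0.10, -0.06 and -0.39, then 0.09, 0.72 and 1.27 in Y12-3. The averaged rise was 1.80 ± 0.20 (SE; limma adjusted p = 8.4e-05), and the difference was 2.74 in A24-39 and 0.87 in Y12-3 (limma adjusted p = 0.0528 for Y12-3). Of the other probe sets of its cluster, looked at after its rise was seen, Ta.3784.1.S1_at, Ta.3784.1.S1_a_at and Ta.3784.3.S1_x_at, rose on average by 1.75, 1.61 and 1.09, while Ta.3784.2.S1_at had a difference of 0.02. Ta.20900.1.S1_at rose in both genotypes, by 1.32 ± 0.09 on average (SE; limma adjusted p = 3.9e-06). It read -0.41, -0.35 and -0.32 with water and 0.94, 0.61 and 0.86 under stress in Y12-3, and 0.77, 0.68 and 0.65, then 2.40, 1.83 and 2.31 in A24-39. Stressed Y12-3 thus reached the level of well-watered A24-39.

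Of the remaining 6 highest risers, Ta.3034.1.A1_at (0.78 ± 0.08, SE; limma adjusted p = 3.9e-05) and TaAffx.42928.1.S1_at (0.52 ± 0.05, SE; limma adjusted p = 4.9e-05) were called in each genotype, with rises of 1.16 and 0.78 in A24-39 and 0.41 and 0.26 in Y12-3. Ta.774.2.S1_at rose by 0.59 on average and by 0.84 in A24-39, and its difference in Y12-3 was 0.34 (limma adjusted p = 0.223). Ta.25030.1.A1_s_at rose by 0.56. The calls of Ta.24133.1.A1_at (0.78, limma adjusted p = 0.0451) and Ta.28058.1.S1_at (0.63, limma adjusted p = 0.0420) were lost in 9 and 8 of the 12 fits that left out 1 array, and that of Ta.24133.1.A1_at also with same-numbered arrays paired as a block. Among the members with the lowest genotype differences, Ta.14489.1.S1_at rose by 0.50 on average and by 0.89 in A24-39, and Ta.22966.3.S1_at by 0.35. Ta.23327.1.S1_at rose by 1.24 in A24-39 (limma adjusted p = 0.0426), while its averaged response was 0.62 (limma adjusted p = 0.0890).

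The largest fall was that of Ta.21064.2.S1_at, from 1.68, 1.82 and 1.69 to 0.35, 0.44 and 0.45 in Y12-3 and from 3.19, 3.03 and 3.61 to 1.59, 1.87 and 1.59 in A24-39. It fell by 1.46 ± 0.09 on average (SE; limma adjusted p = 1.7e-06), by 1.59 in A24-39 and 1.32 in Y12-3, so stressed A24-39 came to the level of well-watered Y12-3. Ta.21064.2.S1_x_at, on the same target, fell by 1.29. Ta.2278.2.S1_a_at and Ta.12530.2.A1_x_at also fell in each genotype, by 1.32 ± 0.23 (SE; limma adjusted p = 0.0017) and 1.15 ± 0.11 (SE; limma adjusted p = 3.8e-05) on average. These 4 probe sets lost signal under stress in both genotypes.

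TaAffx.131237.1.S1_at and Ta.728.1.A1_at fell in A24-39. TaAffx.131237.1.S1_at read 2.38, 2.42 and 2.64 with water and 0.30, 0.97 and 0.75 under stress in A24-39, a fall of 1.81, and 0.20, 0.30 and -0.06, then -0.46, 0.23 and -0.30 in Y12-3, a difference of -0.32 (limma adjusted p = 0.338). Ta.728.1.A1_at fell by 1.35 in A24-39, and its difference in Y12-3, where both means were under the background line, was -0.20 (limma adjusted p = 0.421). Since its Y12-3 signal was at background with water, a fall there could not have been measured for it. Ta.28728.1.S1_at, Ta.28728.1.S1_x_at and Ta.18151.1.S1_x_at fell by 1.24, 1.25 and 1.12 on average, with wide spread among stressed arrays. For Ta.28728.1.S1_at the stressed Y12-3 arrays read 0.38, 2.21 and 0.90 and the stressed A24-39 arrays 2.82, 2.69 and 1.44, and neither genotype alone passed the test.

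**Figure D5:**
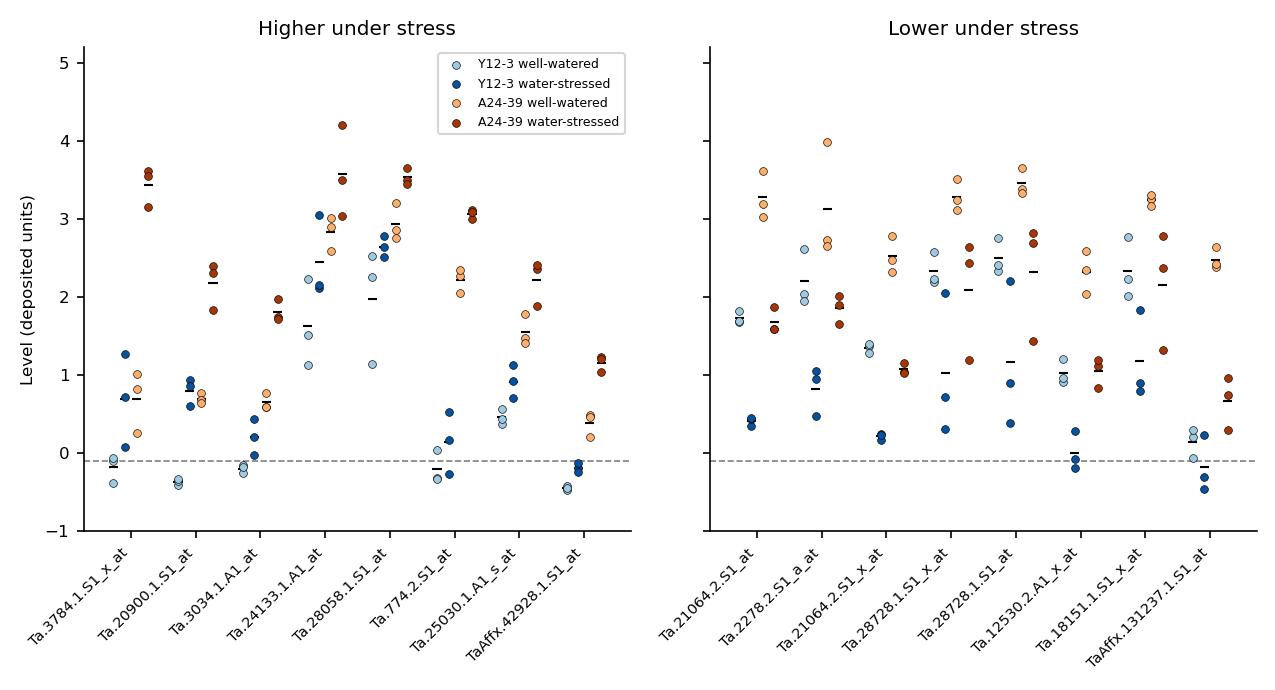
Level on each array (points) and group mean (bars) of the 8 members with the highest and the 8 with the lowest averaged stress response among those called, in deposited log-like units, for well-watered and stressed Y12-3 and A24-39 (n = 3 arrays each). Ta.20900.1.S1_at rises and Ta.21064.2.S1_at falls in both genotypes, while TaAffx.131237.1.S1_at goes from 2.38 or more to 0.97 or less in A24-39 and stays between -0.46 and 0.30 in Y12-3.

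At the other end, 4 members with signal in A24-39 had averaged responses nearest 0. They were Ta.7835.3.S1_x_at, Ta.12148.1.S1_x_at, Ta.2401.2.A1_at and Ta.21791.1.S1_at, with SEs of 0.065, 0.043, 0.051 and 0.051. Of the 4 members with a symbol, LOC543407 rose by 0.49 on average (limma adjusted p = 0.0038). LOC100037531 fell by 0.74 (limma adjusted p = 0.0345), a call lost in 7 of 12 fits that left out 1 array. LOC543235 and LOC543230 had averaged differences of 0.15 and 0.13 and were not called. Ta.27457.5.S1_x_at had an averaged difference of -0.58 (limma adjusted p = 0.0477), a call lost in 10 of 12 such fits and with same-numbered arrays paired as a block. The probe sets higher in Y12-3 under both waterings had 26 of 158 called on average (16.5%), 6 higher and 20 lower.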

How the data were processed

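One table of array values was used, with 1 number per probe set and array. Per the submitters' processing notes RMA was the tool, with no version, and the deposited score is log-like; the sources used here do not give its base, centring or scaling. The values were used as deposited. Of 61290 rows, 175 controls (names starting AFFX or RPTR) were left out. Group means of 3 arrays gave the members; they and the lists were chosen with earlier results of these data known. Limma 3.58.1 in R 4.3.3 (lmFit, eBayes) fitted 4 group means to 12 arrays, leaving 8 residual degrees of freedom, with Benjamini-Hochberg adjustment over 61115 probe sets and a threshold of adjusted p under 0.05. The number of arrays limits the precision. The stress response averaged over the genotypes is orthogonal to the differences the rule used.

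The rule for naming took the 10 members with the lowest mean difference, the 5 lowest of those above background in all groups, 8 highest and 8 lowest averaged stress responses among called members, the 4 nearest 0, members with a symbol, the 5 clusters with most members and the probe sets at the bound. Symbols came from the array annotation, which gave 1 to 1273 probe sets, several to 0 and none to 59842, and the RefSeq table was that of WEW_v2.1. No sequence is printed, because none was at hand for the probe sets.

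Arrays that carry the same number in both genotypes were examined as possible pairs. Their deviations from the group means correlated at 0.244, 0.278 and 0.197 in well-watered and 0.170, 0.575 and 0.536 in stressed roots, all over the bound of 0.1, so they were treated as pairs in an alternative; between waterings the correlations were -0.104 to 0.126. On simulated data with 61115 probe sets, the averaged stress test recovered 70% of changes of 0.25, 88% of 0.5 and 100% of 1. The simulated arrays had no genotype difference, independent normal errors and changes in few probe sets. The data differ in each of these, so the shares check the fit and do not give its power here. Alternatives were spike-in scaling, quantile normalization, a filter on dim probe sets, a trended prior, array weights, only the 6 arrays compared, only probe sets without a shared-probe ending, other bounds, medians, and leaving out each array.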

Additional observations from a re-analysis of the deposited data

How the results depend on the processing

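No called averaged stress response and no genotype difference of a named member changed sign under the alternatives run; averaged responses near 0 that were not called did, such as that of Ta.2401.2.A1_at, from -0.0401 to 0.0295 without 1 array. The genotype pairs entered as a replicate block gave 63 members called for averaged stress, 46 in A24-39 and 22 in Y12-3, and 25 and 32 other probe sets of the clusters lower in Y12-3 in well-watered and stressed roots; the block moved none of these totals by over 1.5 times, but the 9 lower in Y12-3 became 14. With only probe sets without a shared-probe ending the counts in that order were 39, 28, 10, 13 and 14, and 125 members, since fewer were tested. Hybridisation spike-in scaling gave 84 calls in Y12-3, 11 other probe sets lower in stressed roots and 87 members, all 87 among the 189. Poly-A spike-in scaling gave 258 members, which held all 189. Array weights gave 40 calls in Y12-3 and 57 other probe sets in stressed roots, and only the 6 arrays compared gave 27 calls in A24-39. For these the cause was not tested. A bound of 0.6 gave 337 members and one of 1 gave 122. Without 1 array, the counts ran from 47 to 67 for averaged stress, 30 to 46 for A24-39, 11 to 23 for Y12-3 (11 without the third stressed Y12-3 array), 22 to 26 and 28 to 44 for the other probe sets, and 175 to 210 for members. Of the 16 members named for their averaged stress response, 14 kept the call when refitted under each alternative. The signal over background limits the Y12-3 readings, since 82 members lay at background there under both waterings.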
